A study of Mus musculus with 11 samples.

Results

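The lipid droplet coat and lipolysis genes described here are 10 genes, found by their symbols among the 46603 genes of the count table: the perilipins *Plin2*, *Plin3*, *Plin4* and *Plin5*, the CIDE genes *Cidea*, *Cideb* and *Cidec*, the lipase gene *Pnpla2*, its inhibitor *G0s2*, and *Pparg*. All 10 passed the filter on low counts and were among the 13880 genes tested. Their RNA was measured by bulk mRNA sequencing of the liver of 11 mice, 7 given vehicle and 4 given INT-767, a bile acid analogue that activates the receptors FXR and TGR5. All 11 mice were male and *ob/ob*, which means that they make no working leptin. They were 5 to 6 weeks old at the start of the AMLN diet, which holds much fat, cholesterol and fructose. The diet was fed for 15 weeks before treatment and went on during it. INT-767 was given at 10 mg/kg by gavage once daily for 8 weeks, and the vehicle was carboxymethylcellulose given in the same way. The mice had been selected by biopsy for steatosis and fibrosis, and RNA came from the left lateral lobe. Both groups share the *ob/ob* genotype and the diet, so that no lean or chow-fed liver was compared. Total counts per library were between 7381211 and 16022459.

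Hepatocytes store triglyceride and cholesteryl ester in droplets that are bounded by a single layer of phospholipid and covered by proteins. Perilipins are the main coat proteins and limit the access of lipases to the core. The CIDE proteins sit where droplets touch and move lipid from smaller to larger ones. Adipose triglyceride lipase, the product of *Pnpla2*, starts the breakdown of triglyceride, is activated by ABHD5 and is inhibited by G0S2. PPARG is the nuclear receptor that drives the adipocyte programme, and *Plin4*, *Cidea* and *Cidec* are among its known target genes. These are the 3 of the 10 genes called lower below, and which of the others are targets was not examined. In fatty liver of *ob/ob* mice the hepatocytes themselves express *Pparg* together with *Cidea* and *Cidec*, which lean liver hardly makes.

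*Plin4* and *Plin5* are neighbours on chromosome 17, both read from the minus strand, with 1797 bases and no other gene between them in GENCODE M21. In that annotation of GRCm38, *Plin4* lies at chr17:56100591-56109803 and *Plin5* at chr17:56111601-56117596, each with a transcript of 9 exons, while *Plin3* lies 159879 bases beyond *Plin5* with 11 genes between. *Plin2* is on chromosome 4 (chr4:86648386-86670060), *Cidec* and *Pparg* are both on chromosome 6 (chr6:113424634-113435760 and chr6:115360951-115490399), and all members are protein-coding genes. The stretches before the start sites of *Plin4* and *Plin5* are shown because these 2 neighbours moved in opposite directions. The stretch before *Plin2* is shown because it held the only match to a PPAR-type element among the 9 members searched. The sequences are RefSeq's for GRCm38.p6, written 5′ to 3′ on the gene's own strand, and stop before the first transcribed base of either RefSeq or GENCODE. They cover chr17:56109804-56110032 for *Plin4*, chr17:56117597-56117798 for *Plin5* and chr4:86670061-86670309 for *Plin2*. Capitals mark the *Plin2* match and the exact AGGTCA in *Plin5*.
Plin4: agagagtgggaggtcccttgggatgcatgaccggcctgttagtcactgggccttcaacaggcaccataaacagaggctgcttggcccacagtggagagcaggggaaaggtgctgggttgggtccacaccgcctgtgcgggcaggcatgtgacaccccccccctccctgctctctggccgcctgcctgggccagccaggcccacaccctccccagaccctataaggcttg
Plin5: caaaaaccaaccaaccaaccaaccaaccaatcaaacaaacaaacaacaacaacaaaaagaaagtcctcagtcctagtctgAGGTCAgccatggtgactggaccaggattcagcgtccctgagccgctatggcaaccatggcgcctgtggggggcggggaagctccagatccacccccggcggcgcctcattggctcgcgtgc
Plin2: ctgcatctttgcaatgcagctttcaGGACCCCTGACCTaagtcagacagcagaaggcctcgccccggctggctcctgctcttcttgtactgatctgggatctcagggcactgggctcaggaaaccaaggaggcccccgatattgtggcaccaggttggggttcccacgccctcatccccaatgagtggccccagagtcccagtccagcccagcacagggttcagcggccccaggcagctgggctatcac
Windows of 300 bases around the start were given for 9 of the 10 members, 13 windows in all. *Cidea* had no window and was not searched. They were searched on both strands for the direct repeat AGGTCANAGGTCA, the kind of element that PPARs bind with RXR, and for the inverted repeat AGGTCANTGACCT, the kind that FXR binds with RXR. Up to 2 mismatches were allowed in the 12 fixed bases. The direct repeat was matched in 1 of the 13 windows, that of *Plin2*, where GGACCCCTGACCT lay on the opposite strand at positions -225 to -213 from the start, with 2 mismatches. Of all 32851 windows, 3.86% held such a match. The inverted repeat was matched in 0 of the 13 windows and in 1.14% of all. A single AGGTCA, which is part of both repeats, stood in 5 of the 13 windows and in 16.3% of all. The 5 windows were those of *Plin2*, *Plin5* and *Pparg* alone, so they are not 5 separate genes. In *Plin2* the AGGTCA lay within the match to the direct repeat. *Plin4* held none of the 3 kinds of match in its window. *Plin5* held an AGGTCA in each of its 2 windows, which belong to different start sites, at positions -170 to -165 in the one shown and at positions 14 to 19 in the other. These matches describe letters only, and binding was not measured.

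Vehicle mice 1 and 7 stood apart from the other vehicle mice. In 8 of the 10 members they had the 2 lowest or the 2 highest values of the vehicle group, with *Plin3* and *Cideb* as the exceptions. By the sign of the log2 fold change they lay on the side of INT-767 in these 8, although for *Plin2* that change was only 0.03 and the INT-767 values lay on both sides of the vehicle values. The same 2 mice were the end pair in 53.1% of all tested genes, and on the side of the INT-767 change in 45.0%. The share of counts from mitochondrial genes was 6.63% in vehicle mouse 1 and 5.37% in vehicle mouse 7, against 3.89% to 4.99% in the other vehicle mice. Among the INT-767 mice, mice 2 and 4 had 7.80% and 7.53%, and mice 1 and 3 had 6.11% and 5.35%. The part of these differences in the results was not tested. Values without vehicle mice 1 and 7 are therefore also given for each member, and that setting was chosen after the data had been seen. As these mice lay on the side of INT-767 in 8 members, leaving them out widens the differences there. Calls gained in that way are no separate support. Without them, edgeR called 2701 genes higher and 2160 lower, against 700 and 649 with all 11 mice. When all 11 libraries were scaled by their size alone, 331 genes were higher and 1026 lower, and upper-quartile factors gave 467 and 812.

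Of the 10 members, 1 was higher in INT-767 livers and 3 were lower at an adjusted p under 0.05. *Plin5* rose 3.01-fold. *Cidea* fell 8.91-fold, *Plin4* 4.22-fold and *Cidec* 2.66-fold. The other 6 members, *Plin2*, *Plin3*, *Cideb*, *Pnpla2*, *G0s2* and *Pparg*, did not pass. Over all 13880 genes tested, 5.04% were called higher and 4.68% lower. The members had a median log2 fold change of -0.23, and all tested genes one of -0.01. Without vehicle mice 1 and 7, 2 members were called higher and 5 lower, adding *G0s2*, *Pnpla2* and *Pparg*, in a fit that called 19.8% of all tested genes higher and 15.8% lower. In bulk tissue, fewer cells of a type and less RNA per cell cannot be told apart. Levels are given as CPM, counts scaled by TMM to a common library size, and changes were tested by edgeR's quasi-likelihood test with Benjamini-Hochberg adjustment over all tested genes.

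**Figure D1:**
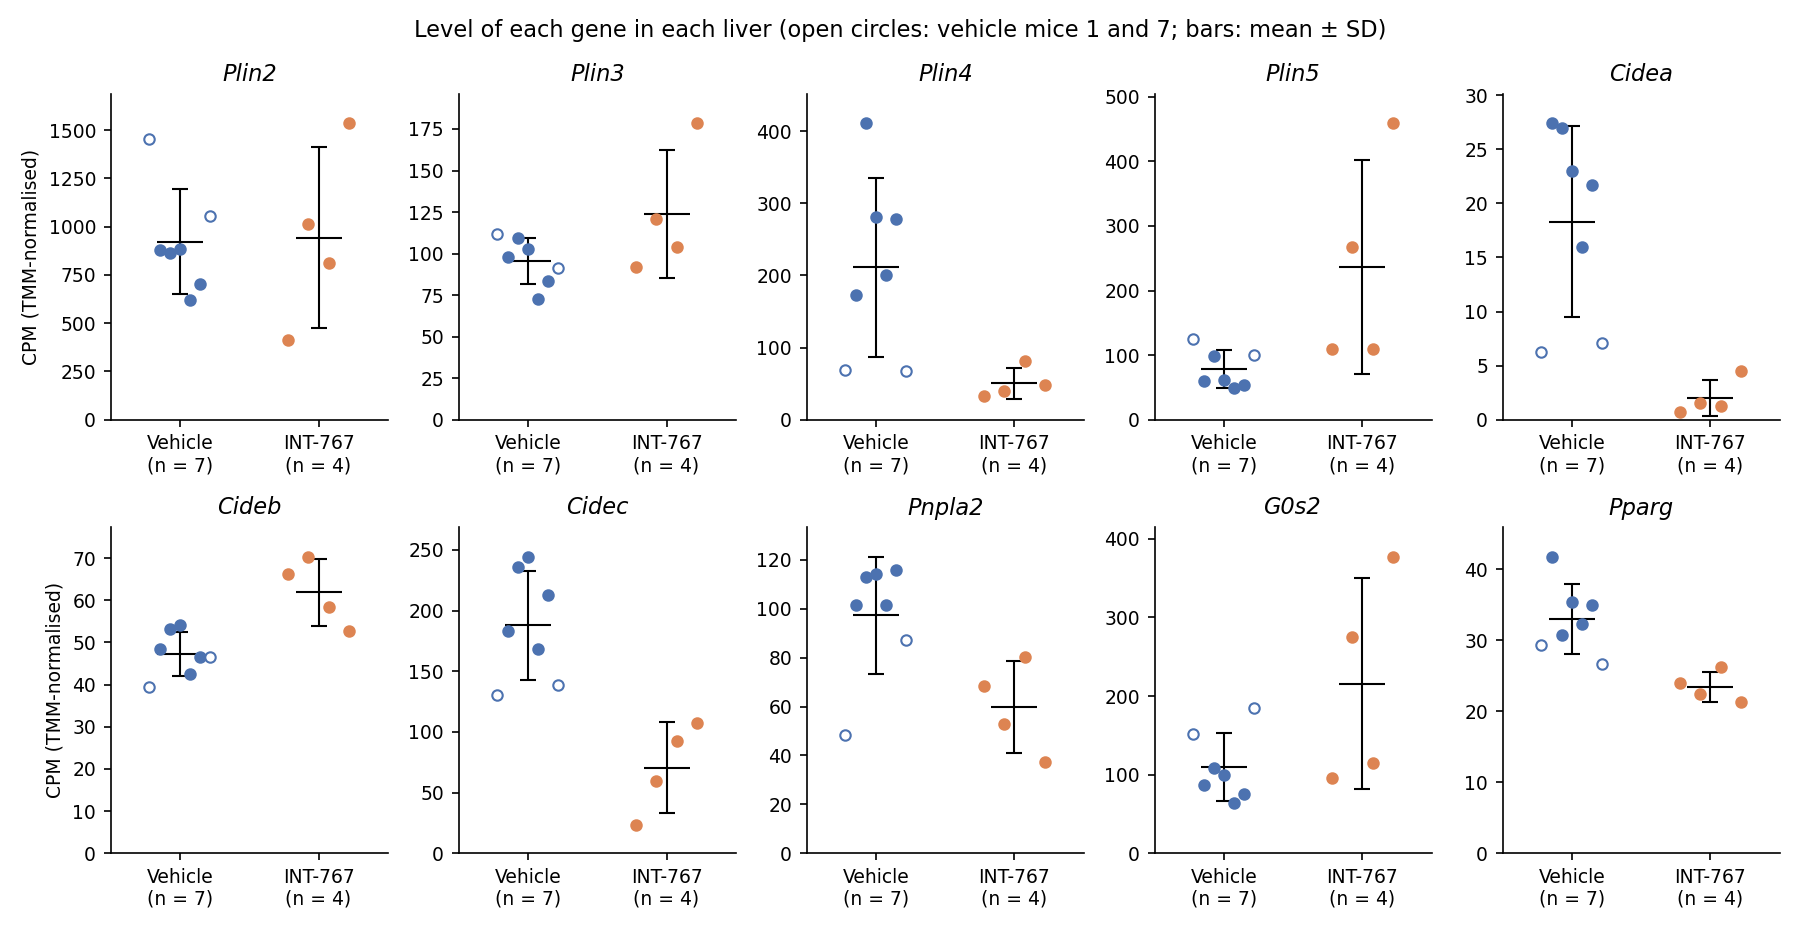
Level of each of the 10 genes in each liver, in CPM on linear axes that start at 0, for 7 vehicle and 4 INT-767 mice. Points are mice, open circles are vehicle mice 1 and 7, and bars are the mean ± SD. The INT-767 points lie below all vehicle points for *Cidea*, *Cidec* and *Pparg*, and the open circles lie nearest to the INT-767 points in those 3 panels.

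**Figure D2:**
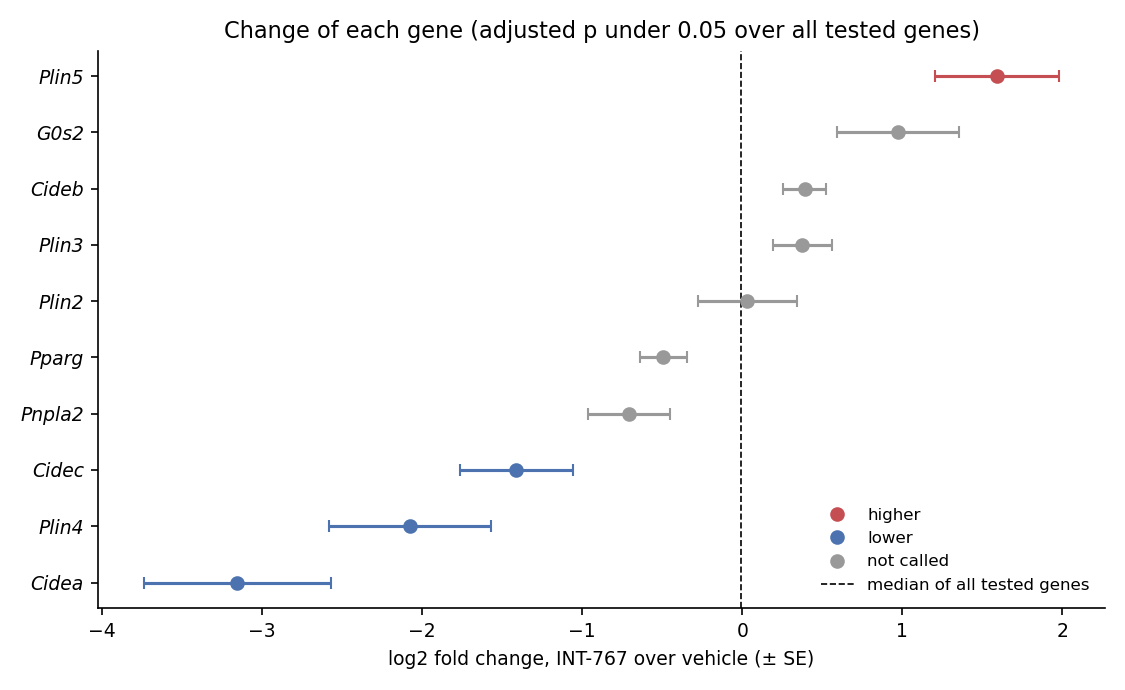
log2 fold change of each gene, INT-767 over vehicle, with its standard error as the horizontal bar. The dashed line is the median of all tested genes. *Plin5* is at 1.59 on the right, *Cidec*, *Plin4* and *Cidea* are at -1.41, -2.08 and -3.15 on the left, and the 6 genes in grey did not pass.

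*Plin2* encodes the perilipin that coats most droplets in hepatocytes and had the highest median level per length of the members in both groups, although *G0s2* was above it in INT-767 mouse 2 (316 against 288 RPKM). In vehicle livers its level was between 619 and 1453 CPM, with a median of 879. In INT-767 mice 1 to 4 it was 414, 1011, 812 and 1536 CPM. The lowest and the highest of all 11 livers were both INT-767 livers, and the groups overlapped throughout. The log2 fold change came to 0.03 ± 0.31 (SE, adjusted p of 0.947 in edgeR). The sign of this change depended on the setting, as 11 of the 22 alternatives gave a value below 0. Scaled by library size alone it was -0.20, where the median of all tested genes was -0.22, and without vehicle mice 1 and 7 it was 0.26 (adjusted p = 0.522 from edgeR). *Plin3*, a perilipin made in most cell types that binds to small new droplets, was between 72.5 and 112 CPM in vehicle livers, with a median of 98.0. It was 92.2, 121, 104 and 179 CPM in INT-767 mice 1 to 4. Its log2 fold change was 0.38 ± 0.19 (SE, adjusted p of 0.176 in edgeR), and 2 of the 4 INT-767 livers lay above all vehicle livers. Leaving out vehicle mice 1 and 7 gave 0.41 (adjusted p = 0.135 from edgeR).

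*Plin4* encodes a perilipin that is best known from adipocytes, where it coats small droplets. In vehicle livers it was between 67.1 and 411 CPM, with a median of 199.99. The values of the INT-767 livers were 32.5, 39.4, 81.5 and 47.4 CPM. Vehicle mice 1 and 7 were the lowest of their group, at 69.0 and 67.1 CPM, and INT-767 mouse 3 lay above both, so that 3 of the 4 INT-767 livers were below every vehicle liver. The mean was 211 ± 124 CPM (SD, n = 7) in vehicle and 50.2 ± 21.8 CPM (SD, n = 4) in INT-767 livers. On the log2 scale the change was -2.08 ± 0.50 (SE, adjusted p of 0.0267 in edgeR), and the exact two-sided Mann-Whitney p was 0.0242. With vehicle mice 1 and 7 left out, the log2 fold change was -2.42 (adjusted p = 0.00309 from edgeR). The call was lost without vehicle mouse 6 (adjusted p = 0.0542), INT-767 mouse 2 (0.107) or INT-767 mouse 4 (0.0604).

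*Plin5* encodes the perilipin of tissues that burn fatty acids, which ties droplets to mitochondria. Vehicle livers held between 49.6 and 125 CPM, with a median of 62.1. The INT-767 livers held 109, 267, 110 and 459 CPM. Mice 2 and 4 were well above all vehicle livers, whereas mice 1 and 3 lay below vehicle mouse 1. The mean rose from 78.6 ± 29.1 CPM (SD, n = 7) to 236 ± 166 CPM (SD, n = 4). Its log2 fold change amounted to 1.59 ± 0.39 (SE, adjusted p of 0.0274 in edgeR), with an exact two-sided Mann-Whitney p of 0.0242. Without vehicle mice 1 and 7 it was 1.86 (adjusted p = 0.0106 from edgeR). The call was lost when vehicle mouse 4 (adjusted p = 0.0547), 5 (0.0571) or 6 (0.0597) was left out, and likewise for INT-767 mouse 2 (0.0968) or 4 (0.0896). Without INT-767 mouse 4 the log2 fold change was 1.03.

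Within each library the ratio of *Plin5* to *Plin2* counts does not depend on how the libraries are scaled. On the log2 scale it was between -3.86 and -3.12 in vehicle livers and between -2.88 and -1.74 in INT-767 livers. The groups did not overlap, and the means differed by 1.47. The counts of *Plin2* were thus several-fold those of *Plin5* in every liver, and the gap was narrower in all 4 INT-767 livers. Vehicle mice 1 and 7, at -3.54 and -3.40, lay within the range of their group here.

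*Cidea* encodes a CIDE protein that is abundant in brown fat and in fatty liver and promotes the growth of large droplets. Vehicle livers held between 6.21 and 27.4 CPM, with a median of 21.7. INT-767 livers held 0.699, 1.52, 1.27 and 4.50 CPM, from 11, 11, 9 and 60 counts, which are above the floor of 3 counts. The groups did not overlap. Vehicle mice 1 and 7, at 6.21 and 7.12 CPM, were the lowest of the vehicle group and still above INT-767 mouse 4, the highest of the treated mice. Its log2 fold change was estimated at -3.15 ± 0.58 (SE, adjusted p of 0.00853 in edgeR), and the exact two-sided Mann-Whitney p of 0.00606 is the smallest that 4 against 7 mice can give. Groups that do not overlap were seen in 7.51% of all tested genes. The gene was called lower in each of the 11 fits that left out 1 mouse, with adjusted p between 0.00390 and 0.0427 from edgeR. With vehicle mice 1 and 7 left out, the log2 fold change was -3.47 (adjusted p = 0.00243 from edgeR).

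*Cidec* encodes the CIDE protein that, in adipocytes, is needed for a single large droplet. It was between 131 and 244 CPM in vehicle livers, with a median of 183. It was 23.0, 59.1, 92.6 and 108 CPM in the INT-767 livers, all below the lowest vehicle liver, so that the groups did not overlap. The mean fell from 188 ± 45.1 CPM (SD, n = 7) to 70.6 ± 37.7 CPM (SD, n = 4). The fitted log2 fold change was -1.41 ± 0.35 (SE, adjusted p of 0.0297 in edgeR), with an exact two-sided Mann-Whitney p of 0.00606. Without vehicle mice 1 and 7 it was -1.57 (adjusted p = 0.0125 from edgeR). The adjusted p was above 0.05 when vehicle mouse 3 (0.0542), 4 (0.0510), 5 (0.0506) or 6 (0.0588) or INT-767 mouse 2 (0.111) was left out, while the log2 fold change stayed between -1.70 and -1.11 in all 11 such fits.

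*Cideb* is the CIDE gene of normal hepatocytes, where its product also helps to load lipid onto VLDL. It was between 39.4 and 54.2 CPM in vehicle livers, with a median of 46.6, and 66.2, 70.3, 58.3 and 52.7 CPM in INT-767 livers. Of these, 3 lay above all vehicle livers. The log2 change was 0.39 ± 0.13 (SE, adjusted p of 0.0771 in edgeR), and the exact two-sided Mann-Whitney p was 0.0242. Leaving out vehicle mice 1 and 7 gave 0.34 (adjusted p = 0.0793 from edgeR). This level is uncertain, since 76.3% of the exon bases of *Cideb* are covered on the opposite strand by *Nop9*, a ribosome biogenesis gene, and the strand setting of the counting is not given in the sources used here. *Nop9* itself was 18.1 ± 1.08 CPM (SD, n = 7) in vehicle and 19.1 ± 1.81 CPM (SD, n = 4) in INT-767 livers. Within each library, the log2 ratio of *Cidec* to *Cideb* counts was between 1.58 and 2.19 in vehicle and between -1.52 and 1.03 in INT-767 livers. The ratio did not overlap between groups, and in INT-767 mice 1 and 2 the order of the 2 genes was turned, with more *Cideb* than *Cidec* counts.

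**Figure D3:**
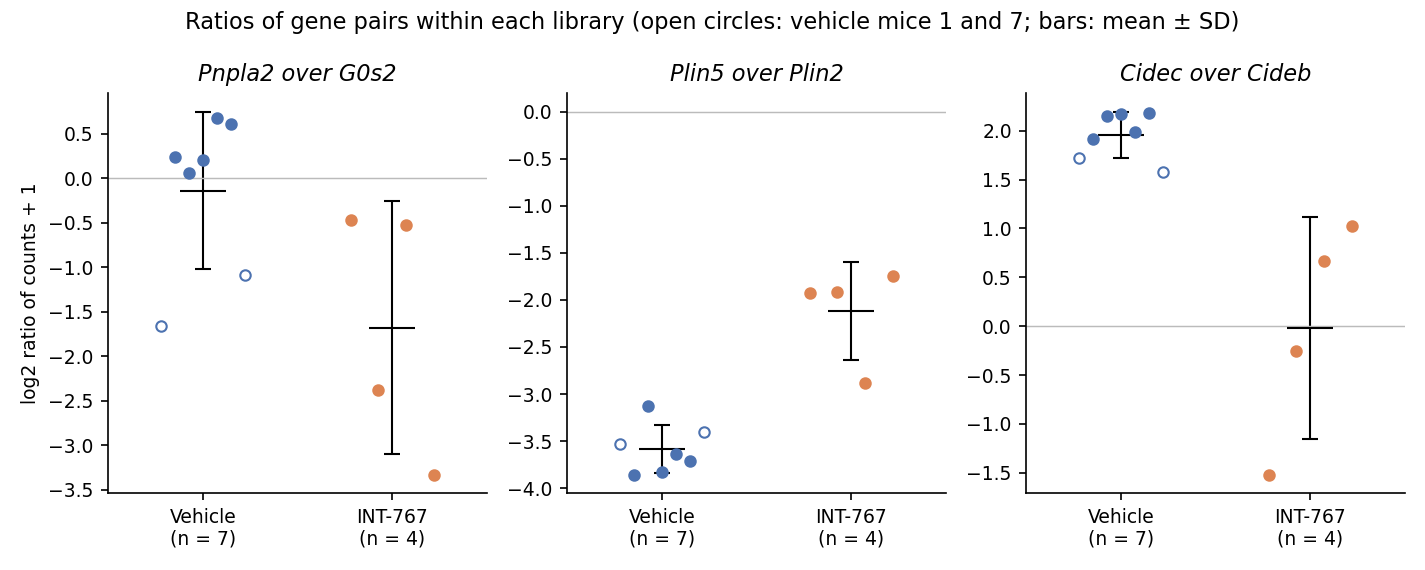
log2 ratio of the counts of 2 genes in the same library, with 1 added to each count, for 7 vehicle and 4 INT-767 mice. Points are mice, open circles are vehicle mice 1 and 7, and bars are the mean ± SD. The groups are separate for *Plin5* over *Plin2* and for *Cidec* over *Cideb*, and overlap for *Pnpla2* over *G0s2*.

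*Pnpla2*, the triglyceride lipase gene, was between 48.2 and 116 CPM in vehicle livers, with a median of 102, and 68.6, 52.9, 80.3 and 37.4 CPM in INT-767 livers. Vehicle mouse 1 was far below the other vehicle livers, the next of which was at 87.3 CPM, and 3 of the 4 INT-767 livers lay above it. The change on the log2 scale was -0.71 ± 0.26 (SE, adjusted p of 0.0880 in edgeR), with an exact two-sided Mann-Whitney p of 0.0424. Without vehicle mouse 1 it was -0.82 and passed the threshold (adjusted p = 0.0202 from edgeR), and without vehicle mice 1 and 7 it was -0.87 (0.0127). Over the 11 fits without 1 mouse its adjusted p was between 0.0202 and 0.249.

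*G0s2*, the inhibitor of that lipase, was between 63.5 and 185 CPM in vehicle livers, with a median of 99.2, and 95.1, 275, 115 and 377 CPM in INT-767 livers. As for *Plin5*, INT-767 mice 2 and 4 were above all vehicle livers, whereas mice 1 and 3 were within the vehicle range. Its log2 change came to 0.97 ± 0.38 (SE, adjusted p of 0.105 in edgeR). With vehicle mice 1 and 7 left out, it was 1.32 (adjusted p = 0.0208 from edgeR), and without INT-767 mouse 1 it was 1.22 (0.0485). Without INT-767 mouse 2 it was 0.80 (adjusted p = 0.293 from edgeR), and without INT-767 mouse 4, the liver with the highest level, 0.54 (0.376). The log2 ratio of *Pnpla2* to *G0s2* counts was between -1.65 and 0.67 in vehicle livers and between -3.33 and -0.47 in INT-767 livers. It was below 0 in all 4 INT-767 livers and in vehicle mice 1 and 7, and above 0 in the other 5 vehicle livers. The group means differed by -1.54, and the ranges overlapped because of those 2 vehicle mice.

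*Pparg* was between 26.7 and 41.8 CPM in vehicle livers, with a median of 32.4, and 24.0, 22.4, 26.2 and 21.4 CPM in INT-767 livers. The groups did not overlap, although INT-767 mouse 3 came within 1 CPM of vehicle mouse 7. The log2 fold change of -0.49 (standard error 0.15) missed the threshold with all mice (adjusted p = 0.0511 from edgeR), and the exact two-sided Mann-Whitney p was 0.00606. It passed without vehicle mouse 1 (-0.52, adjusted p = 0.0307 from edgeR), without vehicle mouse 7 (-0.54, 0.0417) and without both (-0.58, 0.0140). *Pparg* was called in only 2 of the 11 fits without 1 mouse, with adjusted p between 0.0307 and 0.165 from edgeR. With *Cidea* and *Cidec*, it made 3 members whose groups did not overlap, against the 7.51% of all tested genes. Over the 7 vehicle mice, *Pparg* was related to none of the other 9 members after adjustment. With TMM scaling the closest relation was with *Cidea* (Pearson's r = 0.77, exact permutation p = 0.0431, adjusted p = 0.270 over 9 relations, and Spearman's rho = 0.75, exact permutation p = 0.0663). Without vehicle mice 2 and 7, whose *Pparg* levels were the farthest from the median, Pearson's r of *Cidea* was 0.64, and those of *Plin5* (-0.81), *Pnpla2* (0.74) and *Cidec* (0.67) were larger in size. Scaled by library size alone, *Plin5* was closest (Pearson's r = -0.91, exact permutation p = 0.00575, adjusted p = 0.0518), so that the order of the relations depended on the scaling and on the mice. Since vehicle mice 1 and 7 stood apart, the values over all 7 mice rest in part on them.

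Levels of different genes were compared per kilobase of exon, as RPKM. In vehicle livers the order by median RPKM ran from *Plin2* (250) over *G0s2* (114) and *Cidec* (98.7) to *Plin4* (34.6), *Pnpla2* (33.7), *Cideb* (31.3), *Plin5* (29.8) and *Plin3* (25.9), and ended with *Cidea* (19.4) and *Pparg* (10.96). The ranges of each pair of neighbours in this order overlapped over the 7 livers, while those of *Plin2* (176 to 414 RPKM) and *Cidec* (70.4 to 132 RPKM) did not meet. In INT-767 livers *Plin2* (259) and *G0s2* (224) still led, and *Plin5* (90.4) stood before *Cideb* (41.8) and *Cidec* (40.9). *Plin4* (7.51) was next to last there, and *Cidea* (1.25) was last. The range of *Plin5* (52.1 to 220 RPKM) lay wholly above that of its neighbour *Plin4* (5.62 to 14.1 RPKM) in INT-767 livers, whereas in vehicle livers the ranges of the 2 overlapped (23.8 to 60.0 RPKM for *Plin5* and 11.6 to 71.2 RPKM for *Plin4*).

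Other genes of the droplet surface and of lipolysis were taken as a list of 27 genes, of which 25 were tested. Among them edgeR called 3 higher and 0 lower, against 5.04% and 4.68% of all tested genes, with a median log2 fold change of 0.30. At an unadjusted p under 0.05 there were 5 higher and 0 lower, where 17.4% of all tested genes were higher and 15.6% lower. DESeq2 called 5 higher and 0 lower, with 10.4% and 9.86% of all genes, and limma-voom 3 and 0, with 4.37% and 4.11%. *Ces1g*, a carboxylesterase of the Ces1 family, rose from 253 ± 35.5 CPM (SD, n = 7) to 607 ± 165 CPM (SD, n = 4), a log2 fold change estimated at 1.26 ± 0.18 (SE, adjusted p of 0.00329 in edgeR). Reads shared with related genes of that family could make its count uncertain, which was not tested. *Aadac*, an esterase of the endoplasmic reticulum that hydrolyses lipid esters, rose by a log2 fold change of 1.38 (adjusted p = 0.0367 from edgeR), and *Mettl7a1*, a droplet-associated methyltransferase gene with close copies, by 0.53 (0.0234). *Ces1g* was called in all 11 fits that left out 1 mouse, *Mettl7a1* in 8 and *Aadac* in 4. The partners of the members in lipolysis did not pass. *Abhd5*, the activator of the lipase, had a log2 fold change of 0.34 (adjusted p = 0.340 from edgeR), *Lipe*, the hormone-sensitive lipase, -0.54 (0.166), and *Mgll*, the monoglyceride lipase, -0.23 (0.368). *Plin1*, the perilipin of adipocytes, was below the filter, with 0 to 1 counts in 10 of the 11 livers and 18 in INT-767 mouse 4.

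The list for the formation of droplets and the esters within them held 18 symbols, of which *Ldaf1* was not matched and the other 17 were tested. Of these genes edgeR called 2 higher and 1 lower, against 5.04% and 4.68% of all tested genes, with a median log2 fold change of -0.19. At an unadjusted p under 0.05 there were also 2 higher and 1 lower, against 17.4% and 15.6% of all genes. DESeq2 called 2 and 1, against 10.4% and 9.86%, and limma-voom 1 and 1, against 4.37% and 4.11%. The 2 acyltransferases that make cholesteryl ester moved apart. *Soat2*, the enzyme of hepatocytes and enterocytes, rose from 61.7 ± 8.13 CPM (SD, n = 7) to 116 ± 19.6 CPM (SD, n = 4), with a log2 fold change estimated at 0.91 ± 0.15 (SE, adjusted p of 0.00470 in edgeR). *Soat1*, the enzyme of macrophages and most other cells, fell from 22.1 ± 2.30 CPM (SD, n = 7) to 12.4 ± 3.85 CPM (SD, n = 4), with a log2 fold change estimated at -0.82 ± 0.20 (SE, adjusted p of 0.0251 in edgeR). Neither overlapped between groups, which was so for 7.51% of all tested genes. *Agpat2*, an acyltransferase of glycerolipid synthesis, rose by 0.64 (adjusted p = 0.0469 from edgeR), a call that held in 3 of the 11 fits without 1 mouse, whereas that of *Soat2* held in 11 and that of *Soat1* in 8. *Dgat2*, which makes triglyceride, had a log2 fold change of 0.31 (adjusted p = 0.155 from edgeR), and *Bscl2*, which encodes seipin, -0.22 (0.257).

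Among 22 genes of the PPARG axis, its partners and its target genes, all of them tested, edgeR called 1 higher and 3 lower, against 5.04% and 4.68% of all tested genes, with a median log2 fold change of -0.40. At an unadjusted p under 0.05 the axis had 4 genes higher and 5 lower, against 17.4% and 15.6% of all genes. DESeq2 called 3 higher and 4 lower, against 10.4% and 9.86%, and limma-voom 1 and 4, against 4.37% and 4.11%. *Ucp2*, a mitochondrial carrier, fell from 77.0 ± 15.5 CPM (SD, n = 7) to 35.5 ± 8.40 CPM (SD, n = 4), with a log2 fold change estimated at -1.11 ± 0.20 (SE, adjusted p of 0.00764 in edgeR). *Vldlr*, a lipoprotein receptor, fell by 1.09 on the log2 scale (adjusted p = 0.0238 from edgeR). *Aqp7*, a glycerol channel, fell by 1.78 (adjusted p = 0.0478 from edgeR), though this call held in only 4 of the 11 fits without 1 mouse, against 10 for *Vldlr* and 11 for *Ucp2*. *Ppargc1a*, a coactivator of fatty acid oxidation, rose by 0.93 on the log2 scale (adjusted p = 0.00496 from edgeR) and held in 11. Of 3 known target genes of PPARG that were not called, *Lpl*, which encodes lipoprotein lipase, was between 160 and 283 CPM in vehicle livers and between 37.7 and 139 CPM in INT-767 livers. Its groups did not overlap, with a log2 fold change of -1.01 (adjusted p = 0.0591 from edgeR) and an exact two-sided Mann-Whitney p of 0.00606. *Fabp4* and *Cd36*, which encode carriers of fatty acids, had log2 fold changes of -0.59 (adjusted p = 0.192 from edgeR) and 0.40 (0.349), and their groups overlapped. Without vehicle mice 1 and 7 the counts of higher and lower genes were 7 and 2 for the droplet and lipolysis list, 2 and 1 for droplet formation, and 4 and 6 for the PPARG axis, where 19.8% and 15.8% of all tested genes were called. In that fit the 10 genes called in the 3 lists kept their calls, and the log2 fold change of *Aadac* was 1.83 against 1.38.

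**Figure D4:**
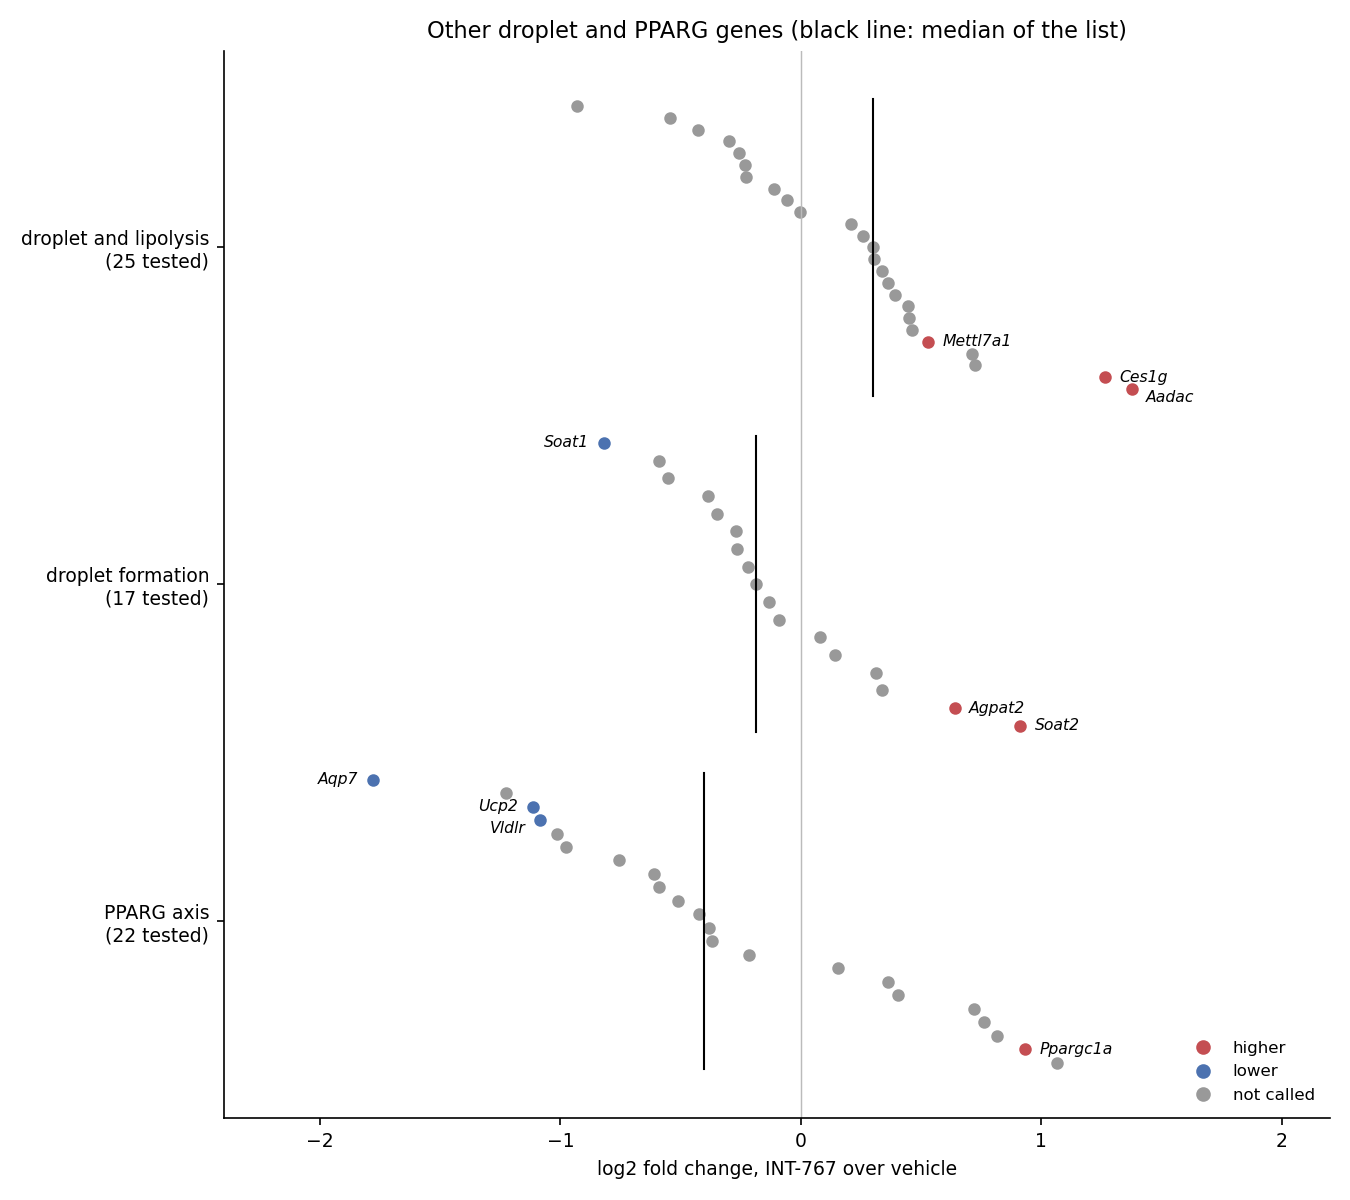
log2 fold change, INT-767 over vehicle, of each tested gene of 3 lists: 25 genes of the droplet surface and lipolysis, 17 of droplet formation and 22 of the PPARG axis. Points are genes, coloured by call, and a black line is the median of its list, at 0.30, -0.19 and -0.40. The 10 called genes are labelled, 6 higher and 4 lower.

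Some of the members, *Cidea*, *Plin4*, *Cidec* and *Pparg* among them, are also genes of adipocytes, so that markers of that cell type were examined. Of 7 adipocyte markers, which include *Cidea* itself, 2 were abundant enough to be tested, and *Cidea* was the only one called. *Retn* was at 0 in every liver, as was *Ucp1* among the 3 markers of brown adipocytes. *Adipoq* was at 0 counts in all 7 vehicle livers and had 0, 1, 0 and 45 counts in the INT-767 livers. *Lep*, whose mutant message is still made in *ob/ob* fat, had 64 counts in INT-767 mouse 4 and 0 in the other 10 livers. The summed level of the 7 markers, most of it *Cidea* in each liver but that of INT-767 mouse 4, was between 7.23 and 29.2 CPM in vehicle livers and 0.953, 2.07, 1.27 and 16.3 CPM in INT-767 livers. INT-767 mouse 4 also had the most *Cidea* and *Cidec* of its group, and the most *Plin2*, *Plin3*, *Plin5* and *G0s2*. *Pparg*, *Pnpla2* and *Cideb* were lowest in that same mouse. Without it the log2 fold change of *Cidea* was -4.06 (adjusted p = 0.00390 from edgeR) and that of *Plin4* was -2.06 (0.0604). In the same fit *Cidec* was at -1.70 (adjusted p = 0.0237 from edgeR) and *Pparg* at -0.46 (0.109).

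Of 8 hepatocyte markers, *Tf* was not matched by symbol and the other 7 were present in every liver. Of these, 0 were called by edgeR, with 3 higher and 0 lower at an unadjusted p under 0.05, against 17.4% and 15.6% of all tested genes. DESeq2 called 3 of them higher, against 10.4% of all genes, and limma-voom 0, against 4.37%. Their summed level, most of it *Alb*, was between 53242 and 72716 CPM in vehicle livers and 97843, 99909, 85224 and 54834 CPM in INT-767 livers. Of 8 macrophage markers, 2 fell, *Csf1r* and *Cd68*, with log2 fold changes of -1.14 and -1.16 (adjusted p = 0.00498 and 0.00943 from edgeR). At an unadjusted p under 0.05, 5 macrophage markers were lower, against 15.6% of all tested genes. DESeq2 called 5 lower and limma-voom 3, against 9.86% and 4.11% of all genes. Their summed level, led by *Lyz2*, was between 712 and 1004 CPM in vehicle and 514, 496, 461 and 1109 CPM in INT-767 livers. Of 7 stellate cell markers, 2 fell, *Col1a1* and *Pdgfrb*, with log2 fold changes of -2.96 and -1.31 (adjusted p = 0.0297 and 0.0302 from edgeR), and their summed level, led by *Dcn*, was between 634 and 1137 CPM in vehicle and between 562 and 931 CPM in INT-767 livers. At an unadjusted p under 0.05, 3 stellate cell markers were lower, against 15.6% of all genes, and DESeq2 and limma-voom each called 2, against 9.86% and 4.11%. The calls of *Col1a1* and *Pdgfrb* held in 5 of the 11 fits without 1 mouse, with adjusted p of up to 0.0946 and 0.114, whereas those of *Csf1r* and *Cd68* held in 11. None of the tested markers of endothelium (5), cholangiocytes (5), lymphocytes (5) or neutrophils (2) was called by edgeR, with 6 lower and 0 higher at an unadjusted p under 0.05, where 15.6% and 17.4% of all genes were. DESeq2 called 2 cholangiocyte markers lower, against 9.86% of all genes, and limma-voom called 0. The part of these cell types in the changes of the members was not tested.

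**Figure D5:**
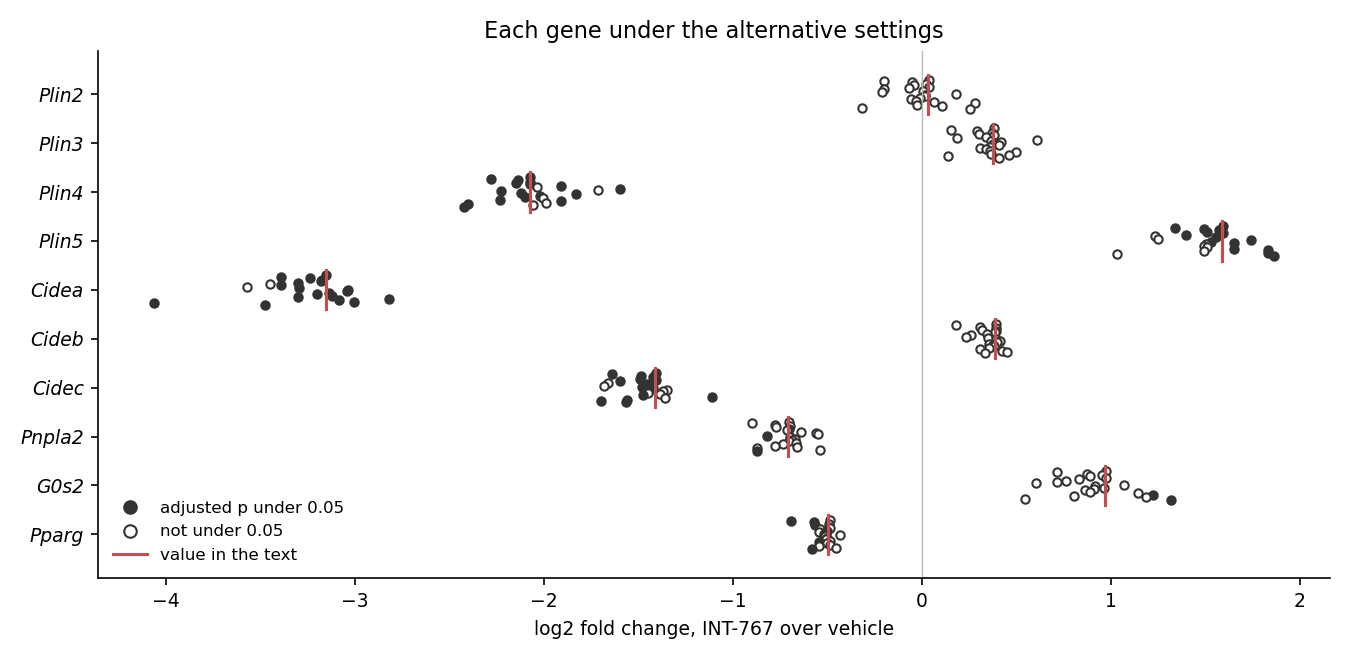
log2 fold change of each gene, INT-767 over vehicle, under each alternative setting. Each point is 1 setting, filled where the adjusted p was under 0.05, and the red line is the value given in the text. *Cidea*, *Plin4*, *Cidec* and *Plin5* kept their direction in all settings shown, while the points of *Plin2* lie on both sides of 0.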

How the data were processed

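Liver RNA of 7 vehicle and 4 INT-767 mice was sequenced from stranded, poly(A)-selected libraries for 75 cycles. The authors deposited raw read counts per gene with no normalization, 46603 genes by 11 mice, aligned with STAR to GRCm38 with Ensembl release 84. The supplementary methods and the submitters' processing notes give different STAR versions, the latter 2.4.0. The sources used here do not give the counting program or its strand setting. Groups came from the sample titles. The labels do not say in which batches the libraries were prepared or sequenced.

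Counts were scaled by TMM factors and genes were kept by filterByExpr (minimum count 10, minimum total count 15). The 13880 kept genes were fitted with edgeR 4.0.16 in R 4.3.3 by robust glmQLFit and glmQLFTest, in a model that held treatment alone. P-values were adjusted after Benjamini and Hochberg across the whole tested set, and 0.05 was the threshold. SEs were derived from fold change and F statistic. For single members the CPM were ranked, and an exact two-sided Mann-Whitney p was enumerated over all 330 assignments of 4 of 11 mice. RPKM divides CPM by the union of a gene's exons in GENCODE M21. DESeq2 1.42.0 and limma 3.58.1 served as alternatives, with other scalings, filters, an offset for GC content and length, a replicate block and the leaving out of each mouse.

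All 10 members are named. From the other lists, each called gene was named, up to 6 a list, together with *Plin1*, *Abhd5*, *Lipe* and *Mgll*, and *Dgat2*, *Bscl2*, *Lpl*, *Fabp4*, *Cd36* and the markers were named after their values were seen. The members and lists were chosen with earlier results of these data known. Libraries were compared in pairs within each group, and none repeated another, as the closest, vehicle mice 5 and 6, had a median chi-square per gene of 1.11. Each mouse is 1 liver. The floor of 3 counts covers counting error only, whereas the SDs and SEs also hold the variation between mice.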

Additional observations from a re-analysis of the deposited data

Results flagged for a closer look

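Among 48 groups of mice and genes examined, 3 had a single liver far from the others of its group, where chance gives about 1 in 20. *Pnpla2* was at 48.2 CPM in vehicle mouse 1, and the nearest other vehicle liver was at 87.3 CPM. *Mettl7a1* was at 269 CPM in INT-767 mouse 2, and the nearest other INT-767 liver was at 213 CPM. *Plin1* was at 1.35 CPM in INT-767 mouse 4, the liver that also held counts of *Adipoq* and *Lep*, and the nearest other INT-767 liver was at 0.138 CPM.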

How the results depend on the processing

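*Cidea* was called lower in 19 of its 21 alternatives, *Plin4* in 17 of 22, and *Cidec* and *Plin5* in 15 of 22. *Pparg* was called in 8 of 22, *Pnpla2* in 3, *G0s2* in 2, *Cideb* in 1 and *Plin2* and *Plin3* in 0. These alternatives include the fit without vehicle mice 1 and 7, whose gained calls are no separate support. That fit called *Cidea*, *Plin4*, *Cidec*, *Plin5*, *Pparg*, *Pnpla2* and *G0s2*, and their numbers include it. The direction was kept by 9 members in all alternatives run. *Plin2* turned to -0.20 with library size only, -0.0539 with upper-quartile factors, -0.0420 with at least 10 counts in every mouse, -0.0667 with limma-voom, -0.20 with the replicate block and -0.21 with the offset and replicate block, and lay between -0.31 and 0.28 when each mouse was left out. That filter removed *Cidea*. Library size only gave 331 genes higher and 1026 lower, DESeq2 gave 1443 and 1368, with 2 members higher and 5 lower, and the offset for GC content and length gave 1070 genes higher and 826 lower. Leaving out vehicle mice 1 and 7 together, which was added after the data were seen, gave 2701 and 2160, with 2 and 5 members. Leaving out each mouse in turn gave between 164 and 1906 genes higher, between 110 and 1370 lower, between 0 and 2 members higher and between 1 and 5 lower. The causes were not tested. Mice with the same number did not deviate together as a rule (correlations of -0.73, 0.24, 0.21 and -0.52). These values gave no sign that the numbers pair the mice, but could not exclude a weaker pairing. The replicate block, alone or with the offset, called 0 genes and 0 members in either direction in edgeR. At an unadjusted p under 0.05 there were 565 higher and 782 lower for the block alone, and 787 and 896 with the offset. Vehicle mice 5, 6 and 7 have no INT-767 mouse of the same number, so they added nothing to the comparison in that model. Scaling by library size only moved the exact Mann-Whitney p of *Plin5* to 0.0727 and that of *Cideb* to 0.230. It also moved Pearson's r with *Pparg* in vehicle livers to -0.91 for *Plin5* (exact permutation p = 0.00575), -0.84 for *G0s2* (0.0188) and -0.82 for *Plin2* (0.0234), with adjusted p of 0.0518, 0.0702 and 0.0702 over 9 relations. Pearson's r of *Plin3* with *Pparg* in vehicle livers, -0.07 with all 7 mice, turned in sign when vehicle mouse 1 or 3 was left out, and was between -0.22 and 0.10 over such fits. The values of *Cidea* in INT-767 livers rest on 9 to 60 counts.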
